A study of Mus musculus with 9 samples.

Results

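Esrrb, Tfcp2l1, Tbx3, Nr5a2, Nr0b1, Zfp42, Gbx2 and Tcl1 are genes that mouse embryonic stem cells express in the naive state, and they were followed here across 3 genotypes of the KH2 embryonic stem cell line. The 8 genes were chosen by name as factors and markers of that state, out of 33233 genes counted in each library, and all 8 passed the filter on low counts. They were chosen with earlier results of these data known, so the shares and medians over all genes are given for scale and are not a test of the set. Polyadenylated RNA was sequenced from 3 CBFA2T2 knockout libraries, 3 libraries labelled PRDM14 knockout and 3 wild-type libraries, described as biological replicates. All 9 came from KH2 cells kept on feeder cells in medium with Lif, the cytokine that sustains self-renewal, and the feeders were taken off before extraction. CBFA2T2 is a co-repressor that works through partner proteins, PRDM14 among them, and PRDM14 is a zinc-finger protein that shields naive cells from differentiation signals. The labels do not say how each gene was disrupted or whether the replicates of a genotype are separate clones, so each edited genotype may be a single line.

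Naive pluripotency is the state of the early epiblast, and in culture it is held by a network in which LIF acts through STAT3, WNT acts by lifting repression by TCF7L1, and PI3K acts through AKT. Those inputs feed partly redundant transcription factors, of which ESRRB, TFCP2L1, TBX3 and GBX2 can each sustain self-renewal when supplied in excess. NR5A2 and NR0B1 are orphan nuclear receptors, NR5A2 an activator of Pou5f1 and NR0B1 mainly a repressor of other nuclear receptors. ZFP42, also called REX1, is the zinc-finger protein most used as a marker of the naive state, and TCL1 is not a transcription factor but a coactivator of AKT.

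Library totals ranged from 10309196 to 20129490 counts, so that 1 CPM, a count per 1000000, stood for 10.3 to 20.1 counts before scaling. The CPM values given here were also scaled by TMM, with factors from 0.962 to 1.037, which moves that range slightly. RNA of the targeted genes was examined first. Cbfa2t2 measured 99.2, 44.9 and 84.8 CPM in the CBFA2T2 knockout libraries, 173, 158 and 146 CPM in the PRDM14-labelled ones, and 166, 159.6 and 177 CPM in wild type. Prdm14 measured 55.0, 56.3 and 67.6 CPM in the CBFA2T2 knockout libraries, 41.4, 42.2 and 63.5 CPM in the PRDM14-labelled libraries, and 18.4, 14.6 and 15.0 CPM in wild type. Cbfa2t2 RNA was thus lower but not lost under its own knockout label, at 2.20-fold below wild type. Prdm14 RNA was higher, not lower, under the PRDM14 knockout label, so these libraries are called PRDM14-labelled throughout. Every direction drawn from them rests on a label that the RNA level does not bear out. Counts per gene do not show whether a small part of the gene was removed, and where the disruption lies was not analysed here. Embryonic stem cell markers were present in all 9 libraries, with 10 listed genes summing to between 3054 and 3476 CPM in CBFA2T2 knockout cells, between 3810 and 4165 CPM in PRDM14-labelled cells and between 6286 and 6575 CPM in wild type. A large part of each sum was Trim28, the most abundant, with means of 1086, 1206 and 2119 CPM in the same order.

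The 8 genes did not move as a block. Against wild type, all 8 differed in CBFA2T2 knockout cells, where 38.5% of all genes tested did, and Tfcp2l1 rose while the other 7 fell, the call of Tbx3 resting on an edgeR adjusted p of 0.0492 that most other ways of processing did not keep. In PRDM14-labelled cells 6 differed, where 29.9% of all genes did: Tfcp2l1 and Tbx3 rose, Nr0b1, Zfp42, Gbx2 and Tcl1 fell, and Esrrb and Nr5a2 did not pass the test. All 8 were lower in CBFA2T2 knockout than in PRDM14-labelled libraries, and 5 of these differences passed the test, as 0.853% of all genes did. In bulk RNA of this kind, fewer naive cells and less RNA per cell cannot be told apart. Each comparison used edgeR's quasi-likelihood test over 16532 genes with Benjamini-Hochberg adjustment, and a gene was called at an adjusted p under 0.05.

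**Figure D1:**
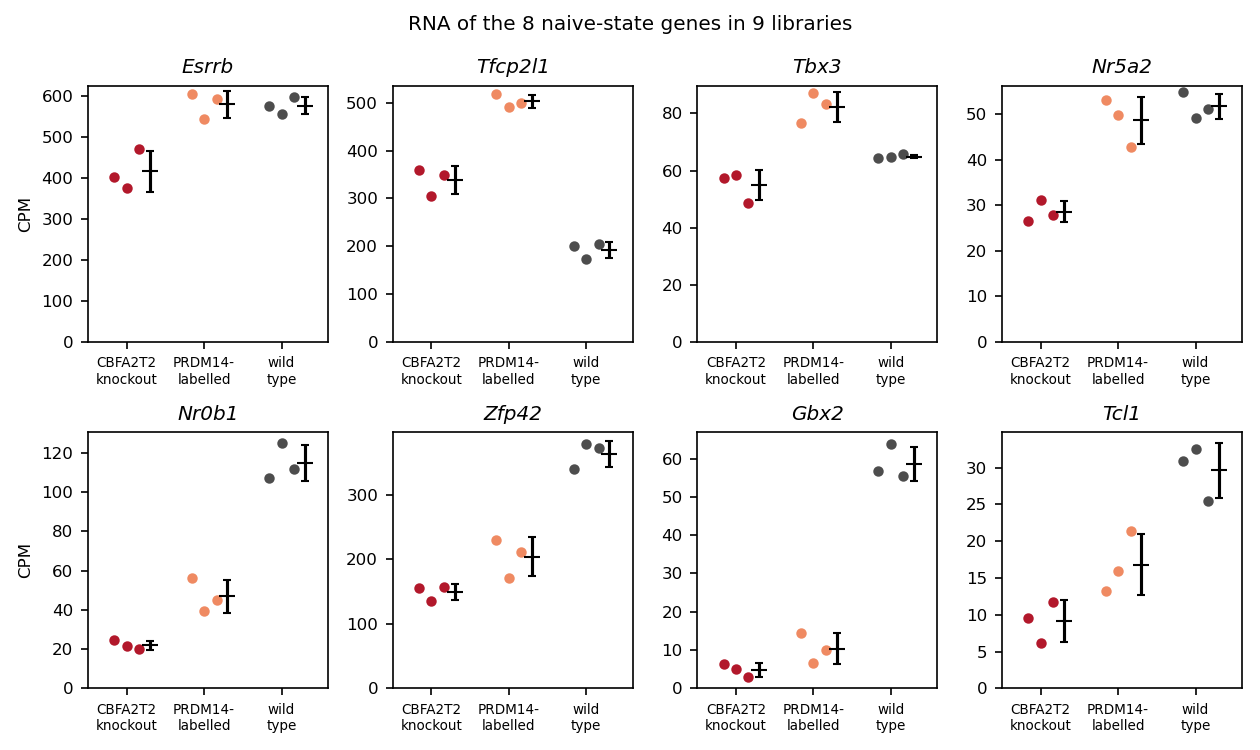
CPM of each of the 8 genes in the 3 CBFA2T2 knockout, 3 PRDM14-labelled and 3 wild-type libraries (points), with the mean (horizontal line) and SD (error bar) of each group beside them. Nr0b1, Zfp42, Gbx2 and Tcl1 are lowest in CBFA2T2 knockout, between in PRDM14-labelled and highest in wild-type libraries, Tfcp2l1 is highest in PRDM14-labelled libraries, and Esrrb and Nr5a2 are low in CBFA2T2 knockout libraries.

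Gbx2 (ENSMUSG00000034486, chr1:89927956-89931179, minus strand, coordinates as in the deposited count files, which match GRCm38) encodes a homeobox factor downstream of LIF and STAT3, and it showed the largest fold change of the 8 in both comparisons with wild type. It measured 6.44, 4.94 and 2.87 CPM in CBFA2T2 knockout cells, 14.6, 6.68 and 9.88 CPM in PRDM14-labelled cells, and 56.8, 63.8 and 55.3 CPM in wild type. The 3 groups did not overlap, although PRDM14-labelled replicate 2 lay just above CBFA2T2 knockout replicate 1. The log2 fold change was -3.59 ± 0.30 (SE) in CBFA2T2 knockout cells, a 12.1-fold lower level, with edgeR adjusted p = 1.6e-05. In PRDM14-labelled cells it was -2.49 ± 0.28 with edgeR adjusted p = 0.00015. These values rest on 37 to 114 counts in CBFA2T2 knockout and 110 to 250 counts in PRDM14-labelled libraries, against 638 to 994 counts in wild type. Variation between libraries was wider than for the other 7 genes in both of these genotypes, though not in wild type, with a coefficient of variation of 37.7% in CBFA2T2 knockout cells, 38.2% in PRDM14-labelled cells and 7.70% in wild type. Gbx2 shares 946 exon bases with D130058E05Rik on the other strand, and the libraries were made to keep strand but the strand setting of the counting is not given, so reads of the pair may not be told apart. D130058E05Rik held 8 to 32 counts in CBFA2T2 knockout, 15 to 46 in PRDM14-labelled and 49 to 77 in wild-type libraries. Set against the Gbx2 counts, these were 32 against 103 in CBFA2T2 knockout replicate 2 and 8 against 37 in replicate 3.

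Nr0b1 (ENSMUSG00000025056, chrX:86191764-86195947, plus strand) encodes DAX1. It stood at 24.5, 21.6 and 19.9 CPM in CBFA2T2 knockout cells, 56.2, 39.6 and 45.1 CPM in PRDM14-labelled cells, and 107, 125 and 112 CPM in wild type. No library of one genotype reached the range of another. Its log2 fold change was -2.38 ± 0.13 in CBFA2T2 knockout cells (edgeR adjusted p = 6e-08), which is 5.21-fold lower, and -1.29 ± 0.12 in PRDM14-labelled cells (edgeR adjusted p = 8.34e-06). Nr0b1 was also lower in CBFA2T2 knockout than in PRDM14-labelled cells, by a log2 fold change of -1.09 ± 0.13 with edgeR adjusted p = 0.0018, the lowest p of the 8 in that comparison.

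Zfp42 (ENSMUSG00000051176, chr8:43295068-43307009, minus strand) had the highest mean of the 8 per kilobase of exon in every genotype, although its libraries overlapped those of Esrrb outside wild type. Its levels were 156, 135 and 158 CPM in CBFA2T2 knockout cells, 230.4, 171 and 212 CPM in PRDM14-labelled cells, and 340.2, 379 and 373 CPM in wild type. Every wild-type library lay above every PRDM14-labelled one, and these above every CBFA2T2 knockout one. The log2 fold change was -1.28 ± 0.10 in CBFA2T2 knockout cells (edgeR adjusted p = 1.58e-06) and -0.83 ± 0.10 in PRDM14-labelled cells (edgeR adjusted p = 6.93e-05). Between CBFA2T2 knockout and PRDM14-labelled cells Zfp42 did not pass the test, with a log2 fold change of -0.45 (95% interval -0.68 to -0.23) and edgeR adjusted p = 0.0606, and it did pass when PRDM14-labelled replicate 2 was left out (-0.57, edgeR adjusted p = 0.00661).

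Tcl1 (ENSMUSG00000041359, chr12:105216750-105222793, minus strand) measured 9.55, 6.14 and 11.8 CPM in CBFA2T2 knockout cells, 13.2, 15.9 and 21.3 CPM in PRDM14-labelled cells, and 31.0, 32.6 and 25.4 CPM in wild type. The order of the genotypes was that of Zfp42, again without overlap. The log2 fold change was -1.71 ± 0.23 in CBFA2T2 knockout cells (edgeR adjusted p = 0.000152). In PRDM14-labelled cells it was -0.82 ± 0.22 (edgeR adjusted p = 0.0159), a call that was lost without PRDM14-labelled replicate 2 (adjusted p = 0.0554), wild-type replicate 1 (0.0505) or wild-type replicate 2 (0.0629). Tcl1 sits 9.757 kb from Tcl1b4, one of a cluster of closely related genes, and Tcl1b1, Tcl1b2, Tcl1b3, Tcl1b4 and Tcl1b5 held at most 2 counts each in any library.

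The promoters of Zfp42, Nr0b1 and Gbx2, all lower than wild type in both comparisons, and of Tfcp2l1, higher in both, are shown so that the letters before their start sites can be compared. Each is the 250 bases upstream of the RefSeq start on GRCm38.p6, written 5′ to 3′ along the gene's own strand, with matches to the searched motifs in capitals. The Zfp42 sequence is chr8:43307010-43307259 (minus strand), that of Nr0b1 is chrX:86191525-86191774 (plus strand), that of Gbx2 is chr1:89931177-89931426 (minus strand) and that of Tfcp2l1 is chr1:118627695-118627944 (plus strand).
Zfp42: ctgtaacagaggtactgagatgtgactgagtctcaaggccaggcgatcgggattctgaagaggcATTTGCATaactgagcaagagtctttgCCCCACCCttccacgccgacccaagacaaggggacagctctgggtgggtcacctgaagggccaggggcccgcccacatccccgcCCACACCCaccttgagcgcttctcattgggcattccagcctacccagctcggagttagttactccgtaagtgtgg
Nr0b1: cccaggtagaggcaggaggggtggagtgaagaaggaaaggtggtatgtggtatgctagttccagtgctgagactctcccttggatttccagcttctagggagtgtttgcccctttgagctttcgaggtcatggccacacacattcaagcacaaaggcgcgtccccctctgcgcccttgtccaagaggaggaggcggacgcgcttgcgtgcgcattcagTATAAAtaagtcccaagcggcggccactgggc
Gbx2: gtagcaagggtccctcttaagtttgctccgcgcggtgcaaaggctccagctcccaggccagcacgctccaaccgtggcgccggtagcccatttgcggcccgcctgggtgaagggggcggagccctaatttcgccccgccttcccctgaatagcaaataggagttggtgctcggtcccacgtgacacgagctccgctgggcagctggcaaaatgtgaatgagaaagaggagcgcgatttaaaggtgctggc
Tfcp2l1: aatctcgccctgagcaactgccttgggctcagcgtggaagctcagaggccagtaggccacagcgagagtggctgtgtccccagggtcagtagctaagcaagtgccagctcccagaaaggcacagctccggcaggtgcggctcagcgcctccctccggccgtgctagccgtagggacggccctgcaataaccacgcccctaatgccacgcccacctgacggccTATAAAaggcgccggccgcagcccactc

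In the Zfp42 promoter the capitals mark an octamer recognised by POU factors such as POU5F1, 186 bases before the start and reading ATTTGCAT on this strand, and a pair of KLF-type boxes 159 and 75 bases before it. In Nr0b1 and Tfcp2l1 they mark a TATA box, 32 and 28 bases before the start, and the Gbx2 window held none of the letters searched. The search covered both strands for the octamer ATGCAAAT, found in 1.60% of 32817 mouse promoters of the same length, the KLF box GGGTGNGG, found in 14.9%, and the TATA box TATAAA, found in 12.4%. It also covered the STAT3 site TTCNNNGAA, found in 7.01%, the ESRRB and NR5A2 half-site AAGGTCA, found in 4.08%, and the PRDM14 motif GGTCTCT, found in 4.64%. RefSeq promoters were at hand for 7 of the 8 genes, without Tbx3, and 2 start sites each were searched for Esrrb and Nr5a2. KLF letters also occurred before both Esrrb starts, the second Nr5a2 start and the Tcl1 start. TATA letters also occurred 181 bases before the first Nr5a2 start, on the other strand. The STAT3 letters occurred once, 178 bases before the first Esrrb start, and neither the half-site nor the PRDM14 letters occurred in any of these windows. These matches describe letters only.

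Tfcp2l1 (ENSMUSG00000026380, chr1:118627945-118685168, plus strand) encodes a CP2-family factor that is a direct target of STAT3, and it was the 1 gene of the 8 that rose in both comparisons with wild type. It measured 360, 305 and 349 CPM in CBFA2T2 knockout cells, 518, 492 and 500.2 CPM in PRDM14-labelled cells, and 199.8, 173 and 204 CPM in wild type. PRDM14-labelled libraries were the highest and wild-type libraries the lowest, with gaps between all groups. The log2 fold change was 0.81 ± 0.08 in CBFA2T2 knockout cells (edgeR adjusted p = 9.45e-06) and 1.39 ± 0.08 in PRDM14-labelled cells (edgeR adjusted p = 2.5e-07). The level in CBFA2T2 knockout cells was in turn below that in PRDM14-labelled cells, at -0.57 ± 0.08 on the log2 scale with edgeR adjusted p = 0.00754.

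Esrrb (ENSMUSG00000021255, chr12:86361117-86521628, plus strand) encodes an orphan nuclear receptor repressed by TCF7L1. Its levels were 402, 375 and 472 CPM in CBFA2T2 knockout cells, 605, 544 and 593 CPM in PRDM14-labelled cells, and 576, 557 and 598 CPM in wild type. The CBFA2T2 knockout libraries lay below the other 6, and the PRDM14-labelled and wild-type libraries overlapped. Esrrb fell in CBFA2T2 knockout cells, with a log2 fold change of -0.47 ± 0.09 and edgeR adjusted p = 0.000736. In PRDM14-labelled cells the log2 fold change was 0.01 with a 95% interval of -0.17 to 0.19 (edgeR adjusted p = 0.956), an interval that leaves room for small shifts either way.

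Nr5a2 (ENSMUSG00000026398, chr1:136842571-136960448, minus strand) had the pattern of Esrrb at a lower level. It stood at 26.6, 31.1 and 27.9 CPM in CBFA2T2 knockout cells, 53.2, 49.8 and 42.9 CPM in PRDM14-labelled cells, and 54.8, 49.2 and 51.2 CPM in wild type. The CBFA2T2 knockout libraries were apart from the others, which overlapped. The log2 fold change was -0.86 ± 0.11 in CBFA2T2 knockout cells (edgeR adjusted p = 3.93e-05), and in PRDM14-labelled cells it was -0.09 with a 95% interval of -0.31 to 0.13 (edgeR adjusted p = 0.553).

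Tbx3 (ENSMUSG00000018604, chr5:119670669-119684724, plus strand) encodes a T-box factor associated with PI3K signalling. It measured 57.2, 58.5 and 48.7 CPM in CBFA2T2 knockout cells, 76.7, 87.2 and 83.2 CPM in PRDM14-labelled cells, and 64.4, 64.7 and 65.7 CPM in wild type. Wild-type libraries thus lay between CBFA2T2 knockout and PRDM14-labelled ones, and no groups overlapped. Tbx3 rose in PRDM14-labelled cells, with a log2 fold change of 0.34 ± 0.09 (edgeR adjusted p = 0.0107). In CBFA2T2 knockout cells the log2 fold change was -0.24 ± 0.09 with edgeR adjusted p = 0.0492, at the edge of the threshold: the call was lost in 13 of 14 other ways of processing the counts, with adjusted p from 0.0524 to 0.178, and was kept when replicate 2 of both genotypes was left out (adjusted p = 0.0440). Without CBFA2T2 knockout replicate 3 the value was -0.16. Tbx3 fell below PRDM14-labelled cells in CBFA2T2 knockout cells by a log2 fold change of -0.58 ± 0.09 (edgeR adjusted p = 0.0103). It shares 115 exon bases with the antisense gene Tbx3os1, which had at most 7 counts in any library.

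In CBFA2T2 knockout cells against wild type, then, 7 of the 8 genes fell, Tbx3 at the edge of the threshold, and 1 rose, in a comparison where 38.5% of all genes were called, 18.9% as higher and 19.6% as lower. The 6 calls in PRDM14-labelled cells, 2 higher and 4 lower, stood against 29.9% of all genes called, 14.6% higher and 15.3% lower. Groups did not overlap for 8 of 8 genes in the first comparison, where 53.7% of all genes did not, and for 6 of 8 in the second, where 45.1% did not. The median log2 fold change of the 8 was -1.07 in CBFA2T2 knockout cells, against 0.01 over all genes tested, and -0.45 in PRDM14-labelled cells, against 0.02. Both comparisons use the same 3 wild-type libraries, so their values stand side by side and were not counted as 2 independent results.

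**Figure D2:**
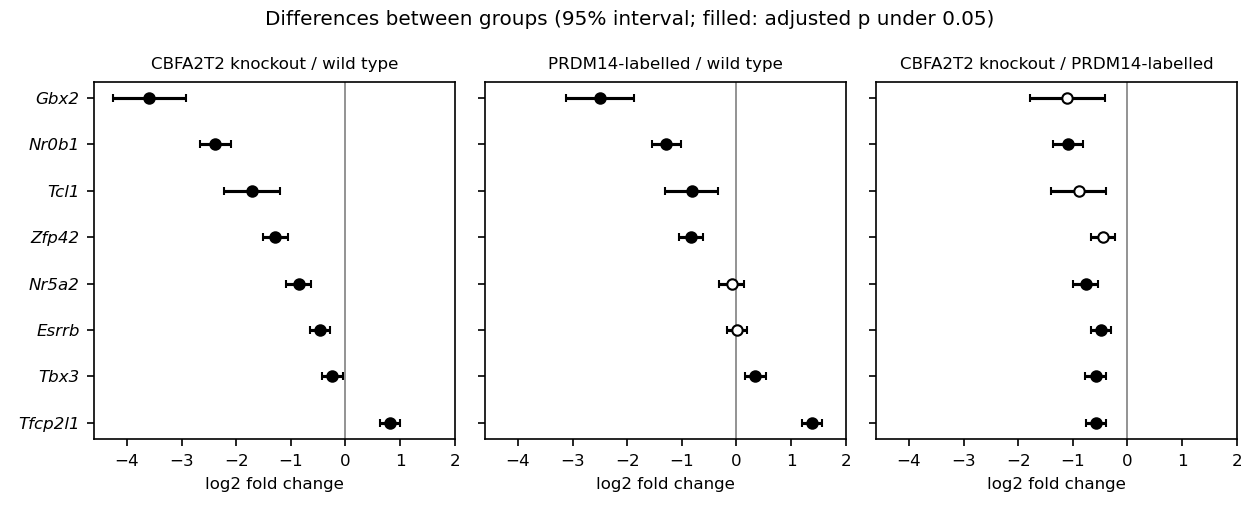
Log2 fold change of each gene in CBFA2T2 knockout and PRDM14-labelled cells against wild type, and in CBFA2T2 knockout against PRDM14-labelled cells, with 95% intervals. Gbx2 lies lowest against wild type in both, at -3.59 and -2.49, Tfcp2l1 lies highest, at 0.81 and 1.39, and the comparison of CBFA2T2 knockout with PRDM14-labelled cells lies below 0 for every gene.

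The direct comparison of CBFA2T2 knockout with PRDM14-labelled cells does not rest on wild-type levels, although the wild-type libraries enter the estimate of spread. Few genes of the whole table differed here, 141 or 0.853%, of which 0.339% were higher and 0.514% lower in CBFA2T2 knockout cells. Of the 8 genes 5 passed the test, Esrrb, Tfcp2l1, Tbx3, Nr5a2 and Nr0b1, and all 5 were lower in CBFA2T2 knockout cells. Esrrb had a log2 fold change of -0.48 ± 0.09 (edgeR adjusted p = 0.0238) and Nr5a2 one of -0.77 ± 0.11 (edgeR adjusted p = 0.00631). Gbx2 did not pass, with -1.10 (95% interval -1.78 to -0.42, edgeR adjusted p = 0.126), nor did Tcl1, with -0.89 (95% interval -1.40 to -0.38, edgeR adjusted p = 0.097). No CBFA2T2 knockout library overlapped a PRDM14-labelled library for any of the 8 genes, whereas 17.8% of all genes did not overlap. The median log2 fold change of the 8 was -0.68, against -0.00 over all genes.

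The number of calls in the direct comparison moved with single libraries. Over all genes it was 34, 24 and 74 without CBFA2T2 knockout replicate 1, CBFA2T2 knockout replicate 2 and PRDM14-labelled replicate 3, and 242 and 597 without CBFA2T2 knockout replicate 3 and PRDM14-labelled replicate 2. Among the 8 genes it ranged from 4 to 7 as each library was left out. Esrrb lost its call without CBFA2T2 knockout replicate 1 (adjusted p = 0.122) or replicate 2 (0.129), Gbx2 gained one without PRDM14-labelled replicate 2 (0.0267), and Tcl1 gained one without CBFA2T2 knockout replicate 3 (0.0461).

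**Figure D3:**
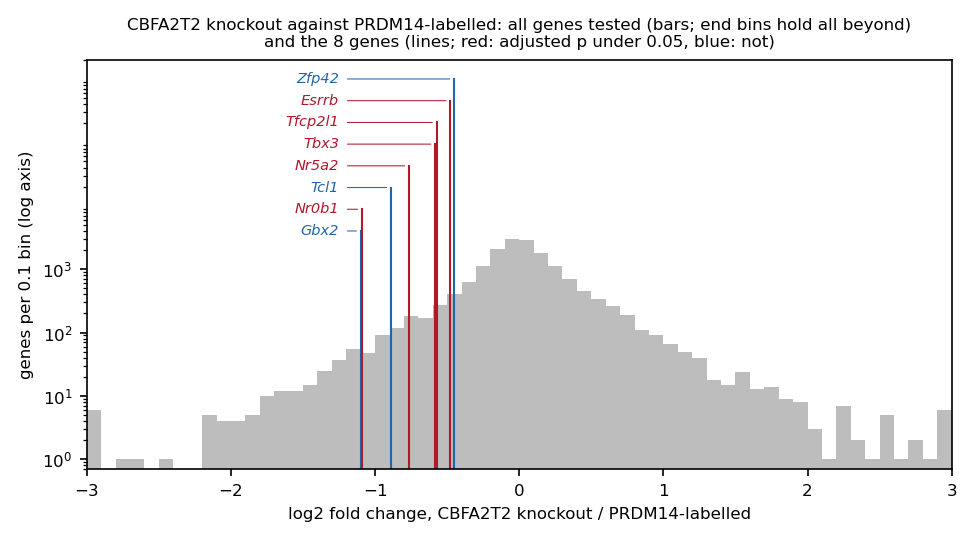
Distribution of the log2 fold change between CBFA2T2 knockout and PRDM14-labelled cells over 16532 genes (bars, genes per bin on a log axis, end bins holding all values beyond), with the 8 genes as lines, red where called and blue where not. All 8 lines lie on the lower side, between -1.10 for Gbx2 and -0.45 for Zfp42.

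Levels of different genes were compared per kilobase of merged exon. In wild type the order was Zfp42 at 193 CPM per kb, Esrrb at 95.4, Nr0b1 at 63.6, Gbx2 at 26.9, Tfcp2l1 at 20.4, Tcl1 at 16.1, Tbx3 at 9.80 and Nr5a2 at 8.76 CPM per kb, and no neighbours in that order overlapped between libraries. In both CBFA2T2 knockout and PRDM14-labelled cells the order was Zfp42, Esrrb, Tfcp2l1, Nr0b1, Tbx3, Tcl1, Nr5a2 and Gbx2. Gbx2 thus took the last place in both, with 2.18 CPM per kb in CBFA2T2 knockout and 4.77 CPM per kb in PRDM14-labelled cells, and Tfcp2l1 came next after Esrrb in both, at 35.8 and 53.3 CPM per kb. Zfp42 and Esrrb could not be ordered in either, where their libraries overlapped around 79.4 and 68.8 CPM per kb in CBFA2T2 knockout cells and 109 and 96.0 CPM per kb in PRDM14-labelled cells. The same held for Tcl1 and Nr5a2.

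**Figure D4:**
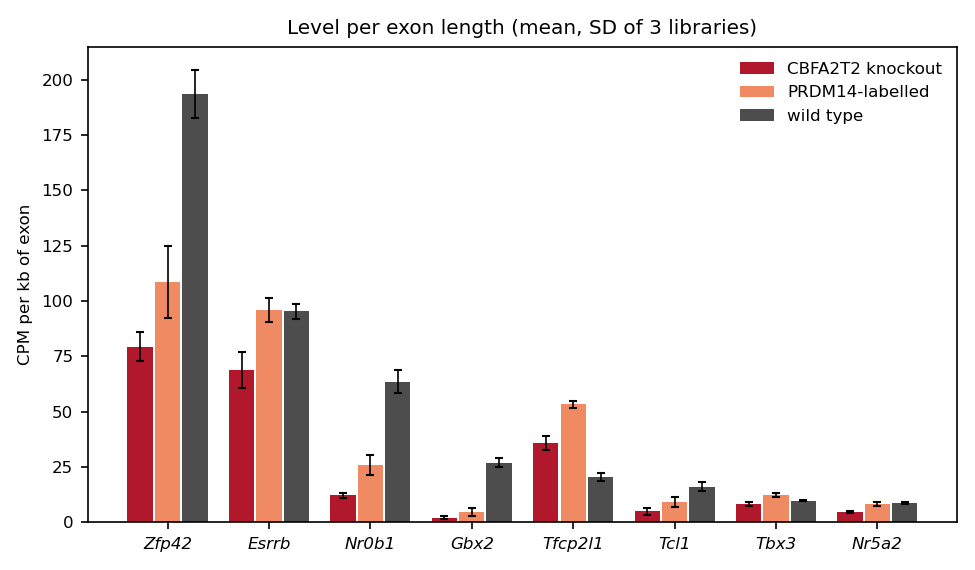
Mean level of each gene in CPM per kilobase of exon in CBFA2T2 knockout, PRDM14-labelled and wild-type cells (bars), with the SD of 3 libraries (error bars). Gbx2 has the lowest mean in CBFA2T2 knockout and PRDM14-labelled cells, at 2.18 and 4.77 CPM per kb, and Nr5a2 the lowest in wild type, at 8.76 CPM per kb.

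Across the 9 libraries the 8 genes fell into different profiles, given here as Pearson r of log2 CPM. These describe 9 points that share 3 genotypes, and a large part of each r is the difference between those genotypes. Nr0b1, Zfp42 and Gbx2 ran together, with r = 0.979 for Nr0b1 with Zfp42, 0.979 for Nr0b1 with Gbx2 and 0.970 for Zfp42 with Gbx2. Esrrb and Nr5a2 had r = 0.871. These sets were not separate, as Nr5a2 had r = 0.851 with Nr0b1 and Esrrb had r = 0.760 with Nr0b1. Tcl1 had r = 0.905 with Zfp42, 0.896 with Nr0b1, 0.835 with Gbx2 and 0.818 with Esrrb. Tfcp2l1 ran against Gbx2, with r = -0.716, and against Zfp42, with r = -0.676, and had r = -0.04 with Esrrb.

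The 2 most similar profiles for each gene were picked among 10366 other genes with a mean of at least 5 CPM. For Nr0b1 they were Ampd3, an AMP deaminase, with r = 0.997, and Bzw2, with r = 0.993. For Zfp42 they were the homeobox gene En2 and the nucleolar protein gene Nolc1, both with r = 0.996, and for Gbx2 they were Chac1, an enzyme that breaks down glutathione, with r = 0.996, and Diexf, with r = 0.993. Esrrb was most like the histone demethylase gene Kdm4c, with r = 0.983, and the proline synthesis gene Aldh18a1, with r = 0.974. Tfcp2l1 was most like Nampt, an enzyme of NAD synthesis, and Canx, a chaperone of the endoplasmic reticulum, both with r = 0.985. Nr5a2 was closest to Anp32a (0.981) and Dennd2c (0.960), and Tcl1 to Camkv (0.989) and Zfp770 (0.979). Tbx3 had the least close matches, Fyttd1 with r = 0.944 and Chtop with r = 0.930, both genes of mRNA export and neither called in any comparison. A high r does not mean a change of like size. Canx was 1.12-fold higher than wild type in CBFA2T2 knockout and 1.18-fold higher in PRDM14-labelled cells, where Tfcp2l1 was 1.76-fold and 2.61-fold higher.

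Of 24 other genes of the naive state, 3 rose and 14 fell in CBFA2T2 knockout cells, and 5 rose and 11 fell in PRDM14-labelled cells. Over all genes 18.9% were higher and 19.6% lower in CBFA2T2 knockout cells, and 14.6% higher and 15.3% lower in PRDM14-labelled cells. The 5 became 3 without PRDM14-labelled replicate 3, wild-type replicate 2 or wild-type replicate 3. Tfe3, a factor whose exclusion from the nucleus accompanies exit from the naive state, had a log2 fold change of -1.03 in CBFA2T2 knockout cells (edgeR adjusted p = 5.27e-07), and Ncoa3, a coactivator of ESRRB, had -0.96 (edgeR adjusted p = 5.9e-07). Both were also called lower in PRDM14-labelled cells, Ncoa3 at -0.86. Manba, a lysosomal enzyme, fell by 1.73 on the log2 scale in CBFA2T2 knockout cells. Dppa3, a maternal factor also called Stella, instead rose in PRDM14-labelled cells by a log2 fold change of 1.69 (edgeR adjusted p = 4.11e-06) and in CBFA2T2 knockout cells by 0.90. In the direct comparison all 24 had a negative log2 fold change, with a median of -0.23, and 3 were called where 0.853% of all genes were, Fgf4, Dppa3 and Spp1. That count was 1 without CBFA2T2 knockout replicate 2 and 5 without CBFA2T2 knockout replicate 3, and Dppa3 lost its call without CBFA2T2 knockout replicate 1 (adjusted p = 0.0775) or 2 (0.122).

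Genes of the signalling inputs were called in both directions, as were all genes, of which 38.5% were called in CBFA2T2 knockout and 29.9% in PRDM14-labelled cells, about as many higher as lower. Of 12 genes of the LIF and STAT3 pathway, of which Lifr, Il6st, Stat3 and Socs3 are also among the 24, 3 rose and 4 fell in CBFA2T2 knockout cells, and 3 rose and 3 fell in PRDM14-labelled cells. In PRDM14-labelled cells only 1 rose without PRDM14-labelled replicate 2, wild-type replicate 1 or wild-type replicate 2, and 5 fell without PRDM14-labelled replicate 1. Lifr, the LIF receptor, measured 38.5, 36.2 and 50.8 CPM in CBFA2T2 knockout, 78.8, 57.0 and 56.5 CPM in PRDM14-labelled and 131, 124 and 148 CPM in wild-type libraries. Its libraries kept the order of Zfp42 without overlap, and its log2 fold change was -1.69 (edgeR adjusted p = 1.06e-05) in CBFA2T2 knockout and -1.07 (edgeR adjusted p = 0.000335) in PRDM14-labelled cells. Jak2, the kinase bound to that receptor complex, rose by log2 fold changes of 1.50 in CBFA2T2 knockout and 1.14 in PRDM14-labelled cells.

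Among 10 genes of the WNT and TCF branch, 2 rose and 2 fell in CBFA2T2 knockout cells, and 2 rose and 3 fell in PRDM14-labelled cells, with 1 falling in each without wild-type replicate 3. Lef1, a TCF-family factor, was low in both, at 7.46, 6.90 and 7.61 CPM in CBFA2T2 knockout and 8.57, 8.50 and 6.57 CPM in PRDM14-labelled libraries, against 78.4, 86.8 and 102 CPM in wild type. Its log2 fold change was -3.61 (edgeR adjusted p = 6.26e-09) and -3.50 (edgeR adjusted p = 8.56e-09). Axin2, a feedback target of WNT signalling, rose by 1.49 and 1.22 on the same scale. Of 12 genes of the PI3K and AKT branch, 3 rose and 3 fell in CBFA2T2 knockout cells, and 2 rose and 4 fell in PRDM14-labelled cells, where the 2 became 0 without PRDM14-labelled replicate 2 or wild-type replicate 1 and 1 without PRDM14-labelled replicate 3 or wild-type replicate 2 or 3. Pdpk1, a kinase that activates AKT, fell by 0.57 on the log2 scale in CBFA2T2 knockout cells and by 0.42 in PRDM14-labelled cells.

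Of 18 listed relatives of the 8 genes, 8 passed the filter on low counts. In CBFA2T2 knockout cells 2 of these fell, where 19.6% of all genes did, and in PRDM14-labelled cells 2 fell, where 15.3% of all genes did. Ubp1, of the same family as Tfcp2l1, fell by 0.42 in CBFA2T2 knockout and by 0.44 on the log2 scale in PRDM14-labelled cells. Yy1, from whose family Zfp42 arose, had log2 fold changes of -0.47 (edgeR adjusted p = 0.0229) and -0.52 (edgeR adjusted p = 0.0187). The Yy1 call was lost in CBFA2T2 knockout cells without CBFA2T2 knockout replicate 1 or 2, and in both without wild-type replicate 2 or 3, where adjusted p ranged up to 0.0909.

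Summed markers of other cell types were not level across the genotypes, while only part of each list was called. In CBFA2T2 knockout cells, 6 of 19 feeder, 7 of 12 trophectoderm and 4 of 13 primitive endoderm genes tested rose. In PRDM14-labelled cells 4, 4 and 3 rose in the same order. One trophectoderm gene fell in the first comparison, and 1 primitive endoderm gene fell in each. Over all genes 18.9% and 14.6% were higher, and 19.6% and 15.3% lower. The 20 fibroblast genes listed for feeder cells summed to 1177, 1963 and 867 CPM in CBFA2T2 knockout, 766, 1721 and 1000 CPM in PRDM14-labelled and 513, 421 and 410 CPM in wild-type libraries, with Col1a1 the most abundant and Lum under 1 CPM in all. The 14 trophectoderm genes summed to 825, 1360 and 513 CPM in CBFA2T2 knockout, 166, 408 and 149 CPM in PRDM14-labelled and 96.1, 77.4 and 89.5 CPM in wild-type libraries, with Krt8 the most abundant, Prl3d1 at 0 and Elf5 under 1 CPM in all. Both sums were highest in replicate 2 of the CBFA2T2 knockout and of the PRDM14-labelled group. Krt8 alone had means of 516 CPM in CBFA2T2 knockout, 111 CPM in PRDM14-labelled and 22.3 CPM in wild-type libraries. The 13 primitive endoderm genes summed to 638 to 946 CPM in CBFA2T2 knockout, 564 to 850 CPM in PRDM14-labelled and 543 to 576 CPM in wild-type libraries, with Sparc the most abundant and Hnf4a under 1 CPM. Sparc itself was called in neither comparison with wild type (edgeR adjusted p = 0.0577 and 0.355). Within the CBFA2T2 knockout, replicate 2 was the lowest of its group for Esrrb, Tfcp2l1, Zfp42 and Tcl1, the highest for Tbx3 and Nr5a2 and between the others for Nr0b1 and Gbx2. Within the PRDM14-labelled group replicate 2 was the lowest for Esrrb, Tfcp2l1, Nr0b1, Zfp42 and Gbx2, the highest for Tbx3 and between the others for Nr5a2 and Tcl1. PRDM14-labelled replicate 2 had a larger feeder sum than CBFA2T2 knockout replicates 1 and 3. Each of the 8 genes was higher in every PRDM14-labelled library than in every CBFA2T2 knockout library, and what part the feeder sum had was not tested. With replicate 2 of both genotypes left out, an alternative chosen after seeing the data, the calls of the 8 genes against wild type were the same, and in the direct comparison 6 were called, Zfp42 being added with adjusted p = 0.0207. The libraries left in still had feeder sums of 766 to 1177 CPM, against 410 to 513 CPM in wild type. Their trophectoderm sums of 149 to 825 CPM also stayed above the 77.4 to 96.1 CPM of wild type, so this fit levelled neither sum. The trophectoderm sum separated CBFA2T2 knockout from PRDM14-labelled libraries without overlap, and the part of either sum in the results was not tested.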

How the data were processed

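PolyA RNA libraries were made with a strand-keeping dUTP method, per the labels' protocols. The authors deposited 1 table of raw counts per gene and library. The submitters' processing notes name Bowtie and mm9, but all 32860 gene IDs shared with GENCODE M21 lie on its chromosomes and 78.1% have its GRCm38 start and end. The sources used here do not give the counting program or its strand setting. Counts were scaled by TMM and tested in edgeR 4.0.16 (R 4.3.3), robust quasi-likelihood, with a filter on low counts (filterByExpr) and all 9 libraries in 1 fit by genotype. Each SE was derived from the log2 fold change and the F statistic of that fit, and 95% intervals from that SE and a t distribution. The precision of each value is limited by 3 libraries a genotype and by library totals of 10309196 to 20129490 counts. DESeq2 1.42.0 and limma 3.58.1 (voom) were alternatives, beside other scaling and filters, a replicate block, fits of only 2 genotypes, and each library left out. The edgeR steps were tested on simulated counts in which a small share of genes changed, in a single group. That share was far below the shares called here against wild type, so the simulation does not cover changes that wide.

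The 8 genes and the gene lists were chosen with earlier results of these data known. Named are all 8 genes, the 2 most similar profiles for each, the 4 other naive-state genes of lowest adjusted p and the 2 genes of lowest adjusted p from each signalling list per comparison with wild type, called relatives, and the targeted genes; Fgf4, Spp1, Nanog and Pou5f1 were named after their values were seen. Some genes that the rule names are not reported here. Gene models and gene model names were left out of the profile search. Exon lengths come from GENCODE M21.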

Additional observations from a re-analysis of the deposited data

How the results depend on the processing

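No called value of the 8 genes changed direction under 14 alternatives. Against wild type, leaving out each library gave 4800 to 5811 genes called in CBFA2T2 knockout cells, where 6367 were called with all libraries, and 3386 to 4970 in PRDM14-labelled cells, against 4941. Of the 8 genes, 6 then fell in every case and 1 rose in CBFA2T2 knockout cells, Tbx3 being the one lost, and 3 to 4 fell and 2 rose in PRDM14-labelled cells. Between CBFA2T2 knockout and PRDM14-labelled cells 141 genes were called with all libraries and 24 to 597 with each left out, 328 with no filter, 602 with DESeq2 and 24 with only these 2 groups fitted. Of the 8 genes 5 were lower, and 4 to 7 with each library left out, 8 with DESeq2 and 3 with only these 2 groups, where Esrrb (adjusted p = 0.118) and Tbx3 (0.0709) were lost. The causes were not tested.

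Libraries with the same replicate number had deviations from their genotype mean correlated between -0.008 and 0.296, not all over 0.1, so the numbers were not taken to pair them. Between CBFA2T2 knockout and PRDM14-labelled groups all 6 libraries correlated best with their own number, against 4 of 6 in each comparison with wild type, a hint from the data and not the design. A replicate block gave 392 calls in the same comparison, 6 of them among the 8 genes, and took Tbx3 in CBFA2T2 knockout cells to adjusted p = 0.0524.

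Depth limits Gbx2 and Tcl1 most, with as few as 37 and 128 counts in a library. The median change of the log2 fold change over all genes was at most 0.031 under any alternative, reached with the filter of a mean of at least 5 CPM. With DESeq2 size factors it was at most 0.0066.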

Other observations

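Genes of the formative and primed states, which follow the naive state in development, were mostly lower in CBFA2T2 knockout and PRDM14-labelled cells as well. Of 18 listed genes 17 could be tested, and 14 fell and 1 rose in CBFA2T2 knockout cells while 15 fell in PRDM14-labelled cells, beside 38.5% and 29.9% of all genes called. The 1 that rose lost its call without CBFA2T2 knockout replicate 1 or 2 or any 1 of the wild-type libraries. Their levels summed to 787 to 859 CPM in CBFA2T2 knockout, 853 to 1140 CPM in PRDM14-labelled and 2683 to 2925 CPM in wild-type libraries, so every CBFA2T2 knockout and PRDM14-labelled library lay below every wild-type library. Dnmt3b, a DNA methyltransferase, was the most abundant, and Pou3f1 had no counts in any library. The lists of naive and formative genes therefore both had more falls than rises against wild type. Of the 10 genes of embryonic stem cell identity, 9 fell and 1 rose in both comparisons. The 1 that rose was Nanog, at 468, 389 and 436 CPM in CBFA2T2 knockout, 546, 435 and 598 CPM in PRDM14-labelled and 331, 292 and 314 CPM in wild-type libraries, with log2 fold changes of 0.47 (edgeR adjusted p = 0.00436) and 0.75 (edgeR adjusted p = 0.000235). Pou5f1 measured 386, 339.9 and 411 CPM in CBFA2T2 knockout, 444, 407 and 453 CPM in PRDM14-labelled and 730.4, 769 and 773 CPM in wild-type libraries.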
